A study of Mus musculus with 12 samples.

Results

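The genes described are those of the nucleus that encode subunits of the mitochondrial respiratory chain and of ATP synthase. They were taken by symbol from the protein-coding rows of the deposited expression table (names starting with Ndufa, Ndufb, Ndufc, Ndufs or Ndufv and a number; Sdha to Sdhd; Uqcr; Cox4 to Cox8; Atp5). This gave 84 genes of 35275 in the table and of 22026 protein-coding genes: 37 of complex I, 4 of complex II, 8 of complex III, 18 of complex IV and 17 of complex V. All 84 matched the reference gene names by their gene ID. Symbol matching also takes in a few genes that are not classical subunits of the complex they are counted under. Ndufa4 is now placed with complex IV, Cox7a2l is a factor of supercomplex assembly, and Atp5s and Atp5sl are not core subunits of ATP synthase.

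RNA sequencing was done on 12 mouse samples labelled liver, with 3 biological replicates per group according to the series' design text. The groups were wild-type mice on vivarium chow (WT chow), wild-type mice on a high fat diet (WT HFD), mice labelled Hnf4a liver knockout on vivarium chow (KO chow) and the same genotype on the high fat diet (KO HFD). Hnf4a encodes a nuclear receptor of hepatocytes. The sources used here do not give the Cre line or promoter behind the knockout, the strain, the sex or the age, and nothing in them says that the 3 samples of a group came from separate animals.

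Complex I takes electrons from NADH, complex II from succinate, and both pass them by way of ubiquinone to complex III, cytochrome c and complex IV, which reduces oxygen. Complexes I, III and IV pump protons, and complex V makes ATP from the proton gradient. A small set of core subunits of complexes I, III, IV and V is encoded by mitochondrial DNA, and all other subunits by the nucleus. Several nuclear subunits exist as alternative forms: Cox7a1, Cox8b and Cox6a2 are the forms of heart, skeletal muscle and, for the first pair, brown fat, where liver uses Cox7a2, Cox8a and Cox6a1, and the c subunit of ATP synthase is made from Atp5g1, Atp5g2 or Atp5g3, which encode the same mature protein.

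The libraries held 15705196 to 20311766 reads on genes. A pair of wild-type chow libraries stood apart from the rest. WT chow 3 held 11.9 FPKM (fragments scaled to gene length and to library depth) of Alb, the hepatocyte albumin gene, where the other libraries held 7604 to 41503 FPKM, and 2339 FPKM of Ucp1, the uncoupling protein of brown fat, against 0 to 3.20 FPKM. The 10 brown fat markers were all above 0 in it, as in WT HFD 2, and their summed level was 4541 FPKM, against 24.6 to 153 FPKM elsewhere. The 8 white fat markers summed to 9548 FPKM in it and to 14.9 to 98.2 FPKM elsewhere. The 10 hepatocyte markers summed to 1240 FPKM in WT chow 3, nearly all of it Pck1. Pck1 went the other way from Alb, at 1203 FPKM there against 192 to 926 FPKM elsewhere. Every other hepatocyte marker was lowest in WT chow 3. WT chow 2 held Alb at 7604 FPKM, below the 12811 to 41503 FPKM of the 10 libraries other than WT chow 2 and WT chow 3. Its 10 hepatocyte markers summed to 24278 FPKM, against 51874 to 85891 FPKM in those 10. Fgb, at 3163 FPKM, was within their range of 1657 to 4257 FPKM, and every other hepatocyte marker was below their range. These 10 libraries serve below as the reference, and every test is given with all 12 libraries and with these 10, which leaves WT chow 1 alone in its group. Hnf4a itself stood at 98.8 to 158 FPKM in the 6 libraries labelled KO and at 116 to 133 FPKM in WT chow 1 and WT HFD, with KO HFD 1 (108 FPKM) and KO HFD 2 (98.8 FPKM) below these 4 wild-type libraries and the 3 KO chow libraries within or above their range. The transcript thus did not separate the libraries by genotype label, and the KO groups are named here by that label only.

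Stretches just upstream of 5 members are printed because these genes differ most between WT chow 3 and the rest (Cox7a1, Cox8b, Atp5g1) or are the liver forms of the same subunit (Cox7a2, Cox8a). Each ends at the base before the first annotated exon, runs 5′ to 3′ on the gene's strand, and comes from the RefSeq promoter windows of build GRCm38.p6. Capitals mark CG dinucleotides. The positions are chr7:30183984-30184143 (plus strand) for Cox7a1, chr9:79759879-79760038 (minus) for Cox7a2, chr7:140900447-140900606 (minus) for Cox8b, chr19:7217617-7217776 (minus) for Cox8a and chr11:96075671-96075830 (minus) for Atp5g1.
Cox7a1: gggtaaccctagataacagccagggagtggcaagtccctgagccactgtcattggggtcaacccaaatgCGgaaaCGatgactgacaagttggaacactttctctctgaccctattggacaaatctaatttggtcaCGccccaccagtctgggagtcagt
Cox7a2: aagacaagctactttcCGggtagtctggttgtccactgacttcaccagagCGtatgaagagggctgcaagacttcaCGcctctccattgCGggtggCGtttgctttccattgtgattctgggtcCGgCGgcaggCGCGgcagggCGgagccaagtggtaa
Cox8b: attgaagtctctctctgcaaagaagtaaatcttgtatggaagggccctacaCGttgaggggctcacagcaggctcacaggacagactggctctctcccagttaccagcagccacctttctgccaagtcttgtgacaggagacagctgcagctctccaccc
Cox8a: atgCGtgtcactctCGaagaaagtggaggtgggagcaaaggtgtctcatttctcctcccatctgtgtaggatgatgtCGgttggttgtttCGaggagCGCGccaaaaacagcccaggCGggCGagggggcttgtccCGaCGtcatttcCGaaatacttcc
Atp5g1: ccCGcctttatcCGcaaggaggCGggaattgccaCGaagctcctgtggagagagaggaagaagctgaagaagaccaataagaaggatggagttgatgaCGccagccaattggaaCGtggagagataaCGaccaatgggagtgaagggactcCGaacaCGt
In these 160 bases Cox8b has 1 CG and Cox7a1 has 3, while Cox7a2 has 10, Cox8a 11 and Atp5g1 9. Over the full RefSeq window of 300 bases (250 before the start site and 50 after it) Cox8b has 2 and Cox7a1 has 7. The windows of the members, 71 for 66 genes, have a median of 19 CG with a range of 2 to 43, and all 32851 windows have a median of 7. Cox8b is the lowest of the members and Cox7a1 the third lowest, after Cox7b with 5.

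Among the members' windows, 10 of 71 (14.1%) hold GCATGCGC, the core of the site of the factor NRF1, on either strand, against 2.71% of all windows. CCGGAAG, a site of ETS factors such as GABP, is in 16 (22.5%) against 8.86%, AAGATGGC, the core of the YY1 site, in 9 (12.7%) against 2.75%, and AAGGTCA, a site of the ERR receptors, in 8 (11.3%) against 4.72%. TATAAA is in 8 (11.3%) against 13.6%, Cox8b among them. No letters of one of these motifs include another whole motif. The NRF1 and ETS letters hold a CG, and the members' windows are richer in CG (median 19 against 7 for all windows). The shares were not compared at like CG content. A pair of members with the NRF1 letters, written in capitals, serves as an example, at chr5:115348982-115349141 (minus) for Cox6a1 and chr17:56717602-56717761 (plus) for Ndufa11. The run in capitals reads the same on both strands and holds a match on each.
Cox6a1: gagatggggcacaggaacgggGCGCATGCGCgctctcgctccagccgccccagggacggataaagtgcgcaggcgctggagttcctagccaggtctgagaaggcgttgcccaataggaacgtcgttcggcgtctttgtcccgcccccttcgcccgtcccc
Ndufa11: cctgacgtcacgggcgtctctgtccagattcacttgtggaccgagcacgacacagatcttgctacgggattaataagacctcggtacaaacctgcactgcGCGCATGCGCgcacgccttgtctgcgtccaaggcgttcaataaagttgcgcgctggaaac
A match describes these letters only and was not linked to binding in these samples.

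Most members were abundant. Of the 84, 57 averaged at least 100 FPKM over the 10 reference libraries, and 78 were above 0.5 FPKM in every library. In complex I the highest were Ndufa4, with a mean of 986 FPKM, and Ndufb9, a small accessory subunit, with 519 FPKM. In complex II, Sdhb (the iron-sulfur subunit, 217 FPKM) and Sdha (the flavoprotein that oxidises succinate, 198 FPKM) were above the membrane anchors Sdhd (161 FPKM) and Sdhc (75.0 FPKM). Among complex III genes the small subunits Uqcr11 (605 FPKM) and Uqcr10 (440 FPKM) were highest, and the core proteins Uqcrc1 (196 FPKM) and Uqcrc2 (134 FPKM) were lowest. Cox6a1 (1036 FPKM) and Cox6b1 (642 FPKM) led complex IV, and in complex V the catalytic beta subunit Atp5b (760 FPKM) and Atp5g3 (565 FPKM) led, with Atp5sl (17.1 FPKM) and Atp5s (5.03 FPKM) at the bottom.

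The filter on low values, a mean of at least 0.5 FPKM over the libraries in a fit, passed 81 members with 12 libraries and 80 with 10. The 4 below it with 10 libraries were Ndufb2 (mean 0.442 FPKM), Cox4i2 (0.264 FPKM), Cox7b2 (2 reads over all libraries) and Cox8c (no read in any library; 3 reads in the shallowest library would be 0.401 FPKM). Ndufb2 passed with 12 libraries. It shares its locus with Adck2, Braf and Gm16272, and its deposited gene length is 4371 bases for a coding length of 315 bases. Of all members, 23 overlap another gene of the table, and whether the counting used strand is not given in the sources used here.

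**Figure D1:**
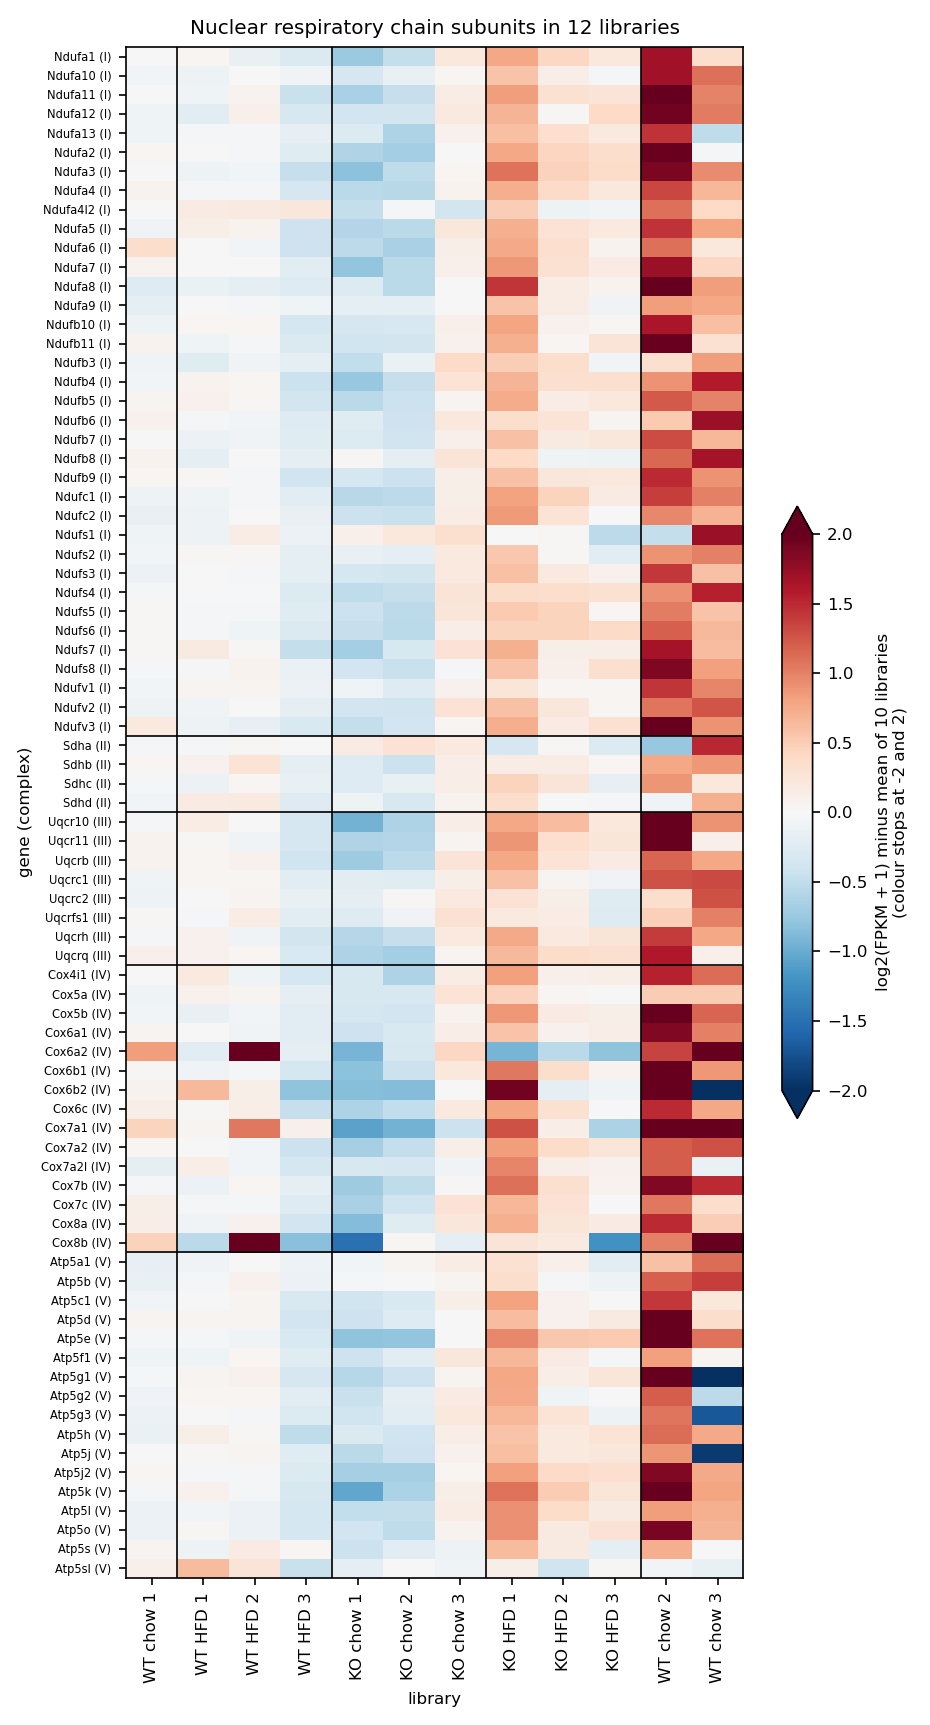
Each row is 1 of the 80 members tested with 10 libraries, grouped by complex, and each column 1 library; colour gives log2(FPKM + 1) minus the mean of the 10 reference libraries, with colour stopping at -2 and 2. WT chow 2 and WT chow 3 at the right are higher for most members, KO chow 1 and 2 are lower, KO HFD 1 is higher, and single genes of complexes IV and V go the other way in WT chow 3.

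The forms of complex IV subunits separated WT chow 3 from every other library. Cox8b, the muscle and brown fat form of subunit VIII, was at 3832 FPKM (22882 reads) in WT chow 3. WT chow 1 and 2 held 4.2 and 6.6 FPKM, the WT HFD libraries 1.59, 36.7 and 1.1 FPKM, the KO chow libraries 0.342, 2.86 and 2.29 FPKM, and the KO HFD libraries 3.5, 3.31 and 0.626 FPKM. The ratio of WT chow 3 to the mean of the 10 reference libraries was 679. The liver form Cox8a was present in WT chow 3 as well, at 792 FPKM against 309 to 920 FPKM in the 10 reference libraries, so Cox8b made up 82.9% of the summed Cox8 FPKM there and 0.0986 to 5.78% in the 10.

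Cox7a1, the same kind of form for subunit VIIa, was at 1970 FPKM in WT chow 3, 149 times the mean of the 10 reference libraries. WT chow 1 and 2 held 16.0 and 78.0 FPKM, the WT HFD libraries 11.9, 24.8 and 12.3 FPKM, the KO chow libraries 4.93, 5.41 and 8.22 FPKM, and the KO HFD libraries 28.9, 12.6 and 7.0 FPKM. Its share of Cox7a1 plus Cox7a2 was 76.6% in WT chow 3, 11.9% in WT chow 2 and 2.31 to 9.40% in the 10. Cox7a2 was at 602 FPKM in WT chow 3 and at 577 FPKM in WT chow 2, both above the 157 to 447 FPKM of the 10.

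Cox6a2, the third muscle form, did not follow the same pattern. It was at 9.67 FPKM (105 reads) in WT chow 3 and at 11.1 FPKM (128 reads) in WT HFD 2, and at 0 to 3.87 FPKM in the other libraries, while its liver counterpart Cox6a1 stood at 2048 FPKM in WT chow 3. WT HFD 2 was also the second highest library for Cox8b. In that library the 8 skeletal muscle markers summed to 104 FPKM and in WT chow 3 to 52.0 FPKM, against 1.11 to 2.92 FPKM in the others, and WT HFD 2 alone of the 10 reference libraries held Ucp1 above 0.1 FPKM. The part of muscle or fat RNA in these values was not tested. In bulk samples, more cells of a type and more RNA per cell cannot be told apart.

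Other paired forms changed little or in another direction. Cox4i1, the general form of subunit IV, made up 99.8% of Cox4i1 plus Cox4i2 in WT chow 3, where Cox4i2, the form of lung, was at 1.90 FPKM, and from 99.9% upwards in the 10. Ndufa4l2, a hypoxia-induced relative of Ndufa4, was at 1.03 to 5.09 FPKM throughout, against 651 to 2414 FPKM of Ndufa4. Cox6b2, a form best known from testis, was at 6.42 FPKM in WT chow 3, below the 24.6 to 177 FPKM of the 10, and at 746 FPKM in WT chow 2. The general form Cox6b1 was above the mean of the 10 in both libraries, at 1111 FPKM in WT chow 3 and 2704 FPKM in WT chow 2. Of 6 testis markers, Prm1, Prm2, Tnp1 and Ldhc had no read in any library. All 6 summed to 11.46 FPKM in WT chow 3, but this was Sycp3 alone, with Ddx4 at 0 there. The sum was 1.04 FPKM in WT chow 2, nearly all of it Sycp3 (0.999 FPKM), and 0.318 to 1.18 FPKM in the 10. The part of testis-type cells in the Cox6b2 values was not tested.

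In complex V, the genes of the c subunit were low in WT chow 3. Atp5g1 was at 0.849 FPKM there (66 reads), against 61.3 and 262 FPKM in WT chow 1 and 2, 65.6, 67.0 and 49.4 FPKM in the WT HFD libraries, 42.1, 46.6 and 65.1 FPKM in the KO chow libraries, and 109, 68.8 and 74.4 FPKM in the KO HFD libraries. The mean of the 10 reference libraries was 76.5 times the level of WT chow 3. Atp5g3 was at 169 FPKM against 418 to 878 FPKM in the 10, and Atp5g2 at 105 FPKM against 111 to 255 FPKM. Atp5b went the other way, at 1976 FPKM in WT chow 3 against 683 to 961 FPKM. The summed FPKM of the 3 c-subunit genes divided by that of Atp5b was therefore 0.139 in WT chow 3, and 0.777 to 1.29 in the 11 other libraries, with no overlap. Atp5j, which encodes coupling factor 6 in the stalk of the enzyme, was also low, at 69.1 FPKM against 180 to 399 FPKM in the 10. Atp5j overlaps Gabpa, which lies on the opposite strand.

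**Figure D2:**
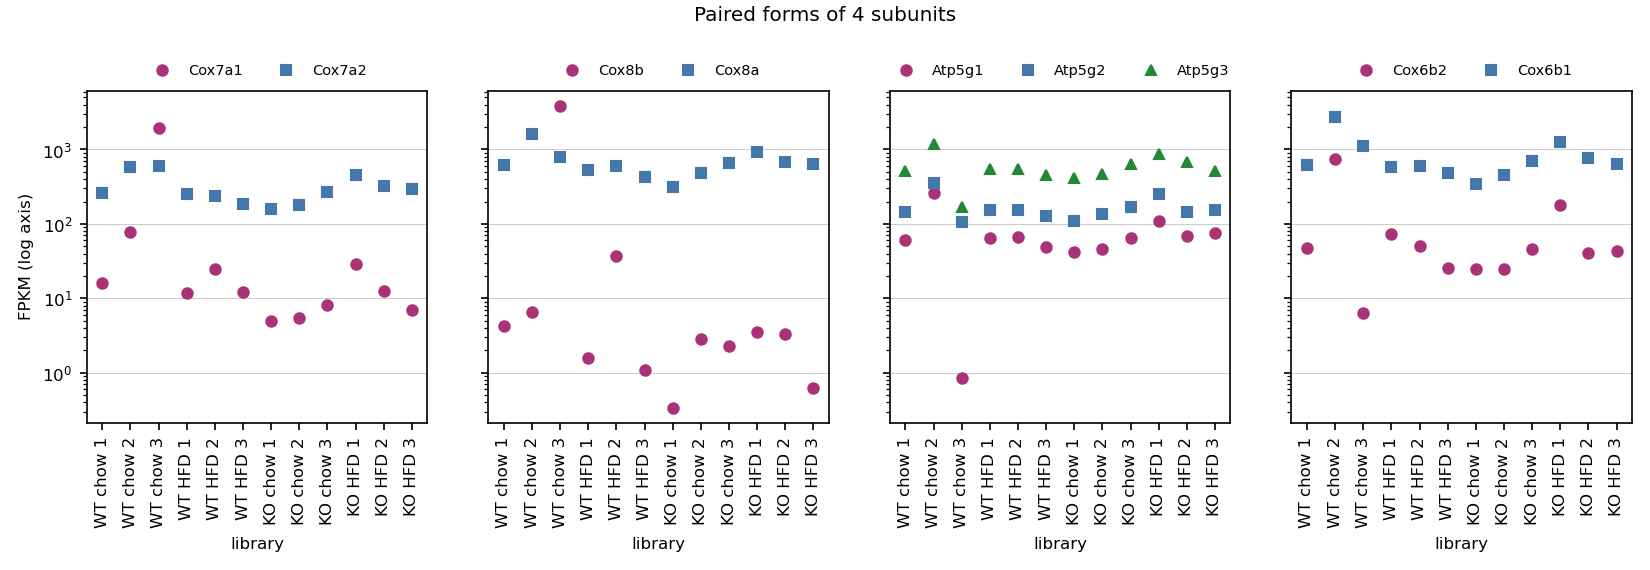
FPKM on a log axis (vertical) in each of the 12 libraries (horizontal) for alternative forms of 4 subunits. Cox7a1 and Cox8b rise above their liver forms only in WT chow 3 among these libraries, at 1970 and 3832 FPKM, Atp5g1 drops there to 0.849 FPKM, and Cox6b2 is lowest in WT chow 3 and highest in WT chow 2.

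Across all members, WT chow 3 was above the mean of the 10 for 72 of 81, with a median difference of 0.78 on the log2(FPKM + 1) scale. The median over all 12251 genes was -0.14. Ndufb2, which passed the filter only through WT chow 2 and 3, is among the 72. Without it the count was 71 of 80, with a median of 0.78. The medians by complex were 0.82 for complex I, 0.79 for II, 0.83 for III, 1.01 for IV and 0.36 for V. By the rule for a single library (at least 1 log2 unit above the highest of the other 11), 5 of 81 members were higher, against 6.54% of all genes: Cox8b, Cox7a1, Sdha, Ndufs1 and Ndufb6. At least 1 unit below the lowest of the other 11 were 4 of 81, Atp5g1, Atp5g3, Atp5j and Cox6b2, against 8.85% of all genes. Both shares are near the background. Sdha stood at 559 FPKM against 156 to 241 FPKM in the 10, and Ndufs1, the largest core subunit of complex I, at 122 FPKM against 24.8 to 45.3 FPKM. In complex III the difference was 1.32 for Uqcrc1, 1.28 for Uqcrc2 and 1.0 for Uqcrfs1, and among the small subunits 0.89 for Uqcr10, 0.78 for Uqcrb, 0.77 for Uqcrh, 0.10 for Uqcr11 and 0.10 for Uqcrq. In complex I, Ndufa13 (-0.51) and Ndufa2 (-0.05) were not above the mean of the 10. WT chow 3 is 1 library, so these differences have no replicate check and no test.

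The 13 subunits encoded by mitochondrial DNA summed to 321077 FPKM for WT chow 3, 31219 FPKM for WT chow 2 and between 42379 and 52276 FPKM for the 10. The 84 nuclear members summed to 36028 FPKM, 51969 FPKM and 13078 to 29288 FPKM in the same order. Mitochondrial transcripts per nuclear subunit transcript were thus 8.91 in WT chow 3, 0.601 in WT chow 2 and 1.68 to 3.92 in the 10. Genes on the mitochondrial genome took 37.5% of all reads on genes in WT chow 3 and 3.39 to 6.26% in the others, which lowers the FPKM of every nuclear gene there. Rescaled to reads outside the mitochondrial genome, the median difference of the members in WT chow 3 was 1.37 and that of all genes 0.31, with 11 of 81 members past the rule for higher, near the 11.8% of all genes. The citric acid cycle and pyruvate dehydrogenase list, whose products feed the chain, stood higher in WT chow 3 than the members did, with a median difference of 2.43 over 17 genes.

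**Figure D3:**
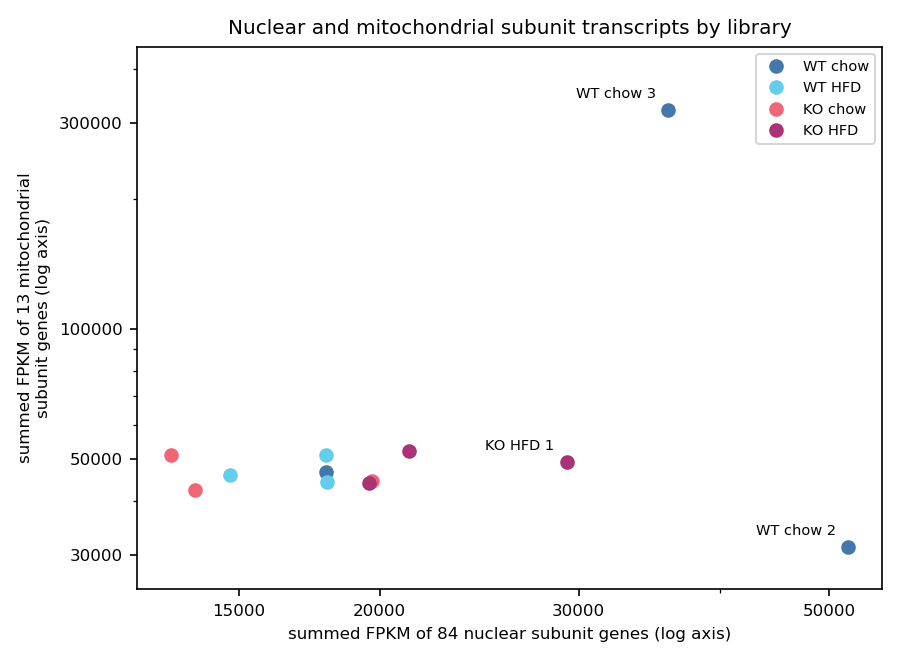
Summed FPKM of the 84 nuclear members (horizontal) against that of the 13 mitochondrial subunit genes (vertical), both on log axes, with 1 point per library coloured by group. WT chow 3 lies at the top (321077 FPKM mitochondrial), WT chow 2 at the lower right (51969 FPKM nuclear, 31219 FPKM mitochondrial), and the 10 other libraries form a row in which the nuclear sum varies more than the mitochondrial sum.

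Counted over the 84 members only and not over all genes, WT chow 2 was the highest of all libraries for 58, and WT chow 3 for 21. The median difference of WT chow 2 from the 10 reference libraries was 1.34 over 81 members, against -0.02 over all genes. Over the 80 members without Ndufb2 it was 1.35. By complex the medians were 1.38 for I, 0.35 for II, 1.33 for III, 1.5 for IV and 1.19 for V. At least 1 log2 unit above each of the 10 were 20 of 81 members, against 4.56% of all genes, and none of the 81 was 1 unit below them. The largest differences included Cox6b2 (4.0), Cox7a1 (2.67), Atp5k (2.27) and Ndufa8 (2.26). The 4 members below the mean of the 10 were Sdha, Ndufs1, Sdhd and Atp5sl. Sdha was at 115 FPKM, below the 156 FPKM of the lowest of the 10, and Ndufs1 at 25.5 FPKM, within their range.

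The comparisons of the 4 groups found no member past the threshold (limma, Benjamini-Hochberg adjusted p under 0.05 over all genes tested) when all 12 libraries were fitted. Over all 12251 genes the calls were also few, 0.0% for KO chow against WT chow, 0.155% for KO HFD against WT HFD, 0.0% for WT HFD against WT chow, 0.155% for KO HFD against KO chow, and 0.122% for the interaction (the diet difference in the KO-labelled libraries minus that in wild type). At an unadjusted p under 0.05 the members past it were 40, 0, 16, 2 and 41 of 81 in the same order, beside 21.1%, 1.27%, 14.7%, 7.54% and 16.6% of all genes. The members' count for WT HFD against WT chow was thus near the share of all genes, and that for KO HFD against KO chow below it. The count for WT HFD against WT chow includes Ndufb2, which passed the filter with 12 libraries but not with 10. The smallest adjusted p of a member was 0.195, 1, 0.307, 0.649 and 0.289. With 10 libraries, the calls over all 11870 genes were 0.0168%, 0.202%, 0.0253%, 8.65% and 0.0842%, and 6 members passed, all for KO HFD against KO chow.

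With all 12 libraries, both comparisons with WT chow were set against a group that holds WT chow 2 and 3. KO chow was below WT chow for 78 of 81 members, with a median difference of -0.99 (all genes 0.08), and WT HFD was below WT chow for 77, with a median of -0.80 (all genes 0.02). The groups did not overlap, with the second group higher, for 12 of 81 members in the first (4.43% of all genes) and for 22 in the second (4.35%). The members with the smallest p were Cox7a1, Ndufv3 and Atp5e in the first and Ndufb8, Ndufv3 and Ndufb2 in the second. Ndufb2 passed the filter only through WT chow 2 and 3 (0.983 and 1.15 FPKM), with a mean of 0.442 FPKM over the 10 reference libraries. The filter thus favoured its place here and in the counts of 78, 77, 12 and 22 above, each of which includes Ndufb2. It adds no support to any of them. Without WT chow 2 and 3 the medians were -0.25 and -0.060, with 1 wild-type chow library. The first of these was -0.14 without KO chow 1, -0.14 without KO chow 2 and -0.42 without KO chow 3, and the second changed sign, to 0.035, without WT HFD 3. Leaving out WT chow 1 instead, so that only WT chow 2 and 3 stood for the group, gave 48 members past the threshold for KO chow against WT chow (24.3% of all genes), 32 for WT HFD against WT chow (19.9%) and 42 for the interaction (18.5%). Of the 12-library medians of -0.99 and -0.80, -0.58 and -0.48 were left without WT chow 2, and -0.95 and -0.76 without WT chow 3.

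KO HFD was above KO chow for nearly all members. The median difference over 80 members was 0.58 on the log2(FPKM + 1) scale with 10 libraries (all genes -0.07), and 77 of 80 were above 0. With the values rescaled to TPM (length-scaled values with the same sum in each library) the members' median was 0.38 and that of all genes -0.22. The 6 members past the threshold, all higher in KO HFD, compare with 1.8% of all genes called higher. KO HFD and KO chow did not overlap, with KO HFD higher, for 34 of 81 members, against 9.98% of all genes; they did so with KO HFD lower for 2, Sdha and Ndufs1, against 21.6% of all genes. At an unadjusted p under 0.05 were 49 of 80 members, 48 of them higher in KO HFD, and 30.0% of all genes in either direction. The medians by complex were 0.58 for I, 0.25 for II, 0.71 for III, 0.64 for IV and 0.52 for V.

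Atp5e, the small epsilon subunit of the F1 head, read 108, 109 and 191 FPKM in the KO chow libraries and 368, 276 and 273 FPKM in the KO HFD libraries. The lowest KO HFD library was above the highest KO chow library. The means were 136 ± 47.7 (SD, n = 3) and 306 ± 54.0 FPKM, a log2 difference of 1.20 with a standard error of 0.24 (limma, adjusted p = 0.0298). The WT HFD libraries held 184, 180 and 152 FPKM and WT chow 1 held 184 FPKM, all above KO chow 1 and 2 and below KO chow 3.

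Atp5j2, a subunit of the membrane sector of ATP synthase, read 206, 207 and 337 FPKM in KO chow and 580, 429 and 415 FPKM in KO HFD (log2 difference 0.94 ± 0.23 SE; limma adjusted p = 0.0389). Among accessory subunits of complex I, Ndufa2 read 186, 177 and 280 FPKM in KO chow and 481, 379 and 359 FPKM in KO HFD (0.94 ± 0.21; limma adjusted p = 0.0340). Ndufa3 was at 84.1, 105 and 153 FPKM and at 318, 206 and 192 FPKM (1.07 ± 0.26; limma adjusted p = 0.0397). In each of these genes KO chow 3 was the highest of its group and KO HFD 1 the highest of the other, and the groups did not overlap.

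Ndufs6, an accessory subunit with a zinc site, read 174, 165 and 263 FPKM in KO chow and 328, 325 and 312 FPKM in KO HFD (0.71 ± 0.19; limma adjusted p = 0.0489). Uqcrq, a small subunit of complex III, was at 267, 256 and 426 FPKM and at 643, 528 and 513 FPKM (0.86 ± 0.22; limma adjusted p = 0.0462). Both genes again separated the 2 diets, with KO chow 3 nearest to KO HFD.

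These 6 calls rest on the choice of libraries. With all 12 libraries none passed (limma adjusted p = 0.649 for Atp5e), with the same group means and differences. Within the 10 libraries, leaving out KO chow 3 gave 36 members past the threshold, all higher in KO HFD, where 3.59% of all genes were called higher. Leaving out WT HFD 3 gave 2 (0.963% of all genes) and leaving out KO HFD 2 gave 1 (0.85%). Leaving out any 1 of KO chow 1, KO chow 2, KO HFD 1, KO HFD 3, WT HFD 1 or WT HFD 2 gave 0, and so did a fit with the replicate number as a block. With TPM, 8 members passed, where 17.0% of all genes passed in either direction, a larger share. Of the 8, 6 were higher in KO HFD (Atp5k, but not Ndufs6, beside the other 5) and 2 lower (Sdha and Ndufs1). Ndufs6 did not pass with median-of-ratios scaling either.

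**Figure D4:**
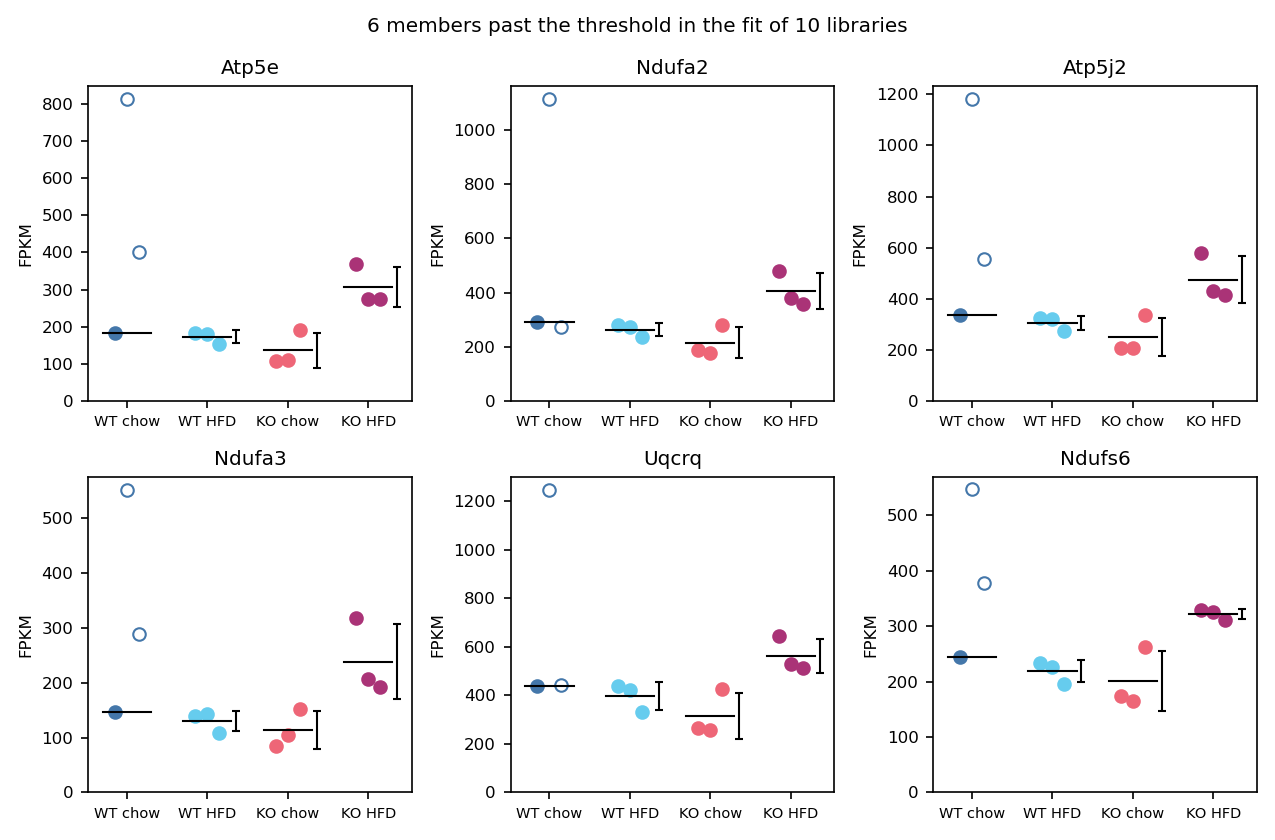
FPKM of the 6 members past the threshold for KO HFD against KO chow in the fit of 10 libraries, by group, with 1 point per library; open circles are WT chow 2 and WT chow 3, lines are means and bars standard deviations of the filled points. KO HFD lies above KO chow in all 6 panels, with KO chow 3 the highest library of its group.

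The size of the diet difference in the KO-labelled libraries went with the length of the coding sequence. Members with a coding length under 600 bases had a median difference of 0.67 (58 genes), and those of 1000 bases or more had 0.17 (11 genes). Over the 80 members the rank correlation of the difference with coding length was -0.67 (Pearson -0.67 with log2 length), and over 11018 genes tested that have a coding length it was -0.50 (Pearson -0.47). All genes under 600 bases had a median of 0.34 (1500 genes), and all of 1000 bases or more -0.18. These are descriptions across genes, which share their libraries and are not replicates. The part of length, or of anything that goes with it in the libraries, in the members' difference was not tested.

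By roles chosen after the values were seen, the 7 core subunits of complex I that are encoded in the nucleus had a median of 0.45. Their range was -0.38 (Ndufs1) to 0.62 (Ndufs8). The 29 other members tested under complex I, with Ndufa4 and Ndufa4l2 among them, had a median of 0.65. In complex III, the core proteins and the Rieske protein (Uqcrc1, Uqcrc2, Uqcrfs1) had 0.30, 0.05 and 0.04, against 1.01 for Uqcr10 and 0.86 for Uqcr11. In the F1 head the range ran from 0.01 for the alpha subunit Atp5a1 to 1.20 for Atp5e, with a median of 0.49, above the 0.42 of the 3 c-subunit genes. Sdha read 220, 241 and 225 FPKM in KO chow and 156, 199 and 163 FPKM in KO HFD, with no overlap, with a log2 difference of -0.41 ± 0.14 (SE; limma adjusted p = 0.0894). Ndufs1, which overlaps Eef1b2 and Ino80dos on the opposite strand, was at 38.5, 42.0 and 45.3 FPKM and at 36.1, 36.4 and 24.8 FPKM (-0.38 ± 0.17; limma adjusted p = 0.173).

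**Figure D5:**
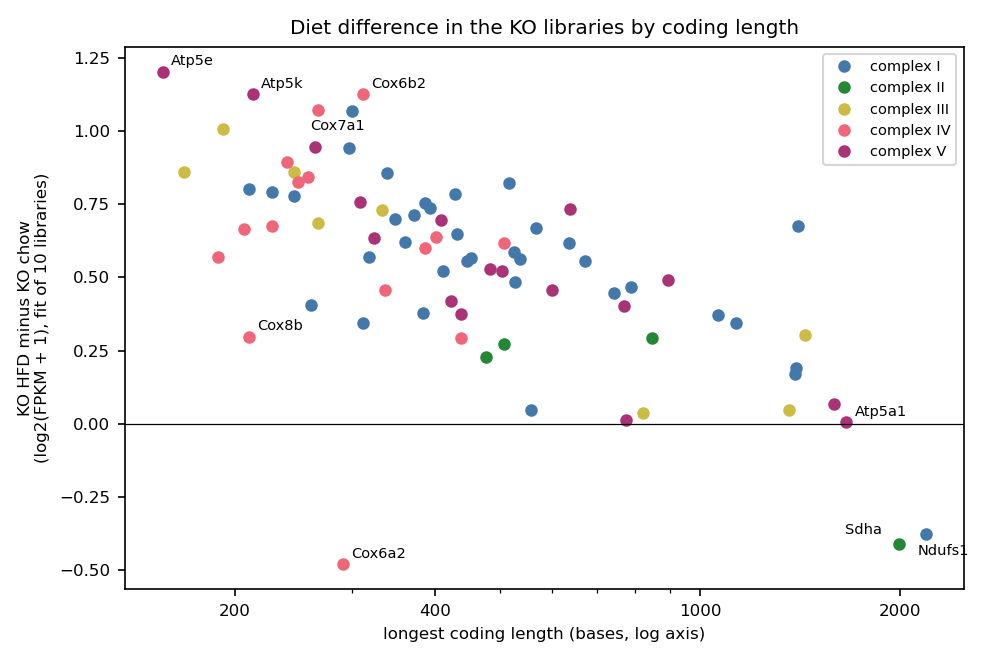
Difference of KO HFD minus KO chow in log2(FPKM + 1) (vertical, fit of 10 libraries) against the longest coding length in bases (horizontal, log axis), with 1 point per member coloured by complex. Short members such as Atp5e (1.20) lie at the top left, and Sdha (-0.41) and Ndufs1 (-0.38) at the lower right.

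The difference of WT chow 2 from the mean of WT HFD, which shares no library with KO HFD against KO chow, ranked the members alike: the rank correlation of both differences was 0.73 over 80 members (Pearson 0.77) and 0.63 over all 11870 genes (Pearson 0.52). Within the KO groups the members also differed between replicates. Of the 80 members, 73 had their highest value among the 10 reference libraries in KO HFD 1, and 70 had their lowest in KO chow 1 or KO chow 2. These counts cover the members only, with no share over all genes beside them, so they do not set the members apart. KO chow 3 was above the mean of the 10 for 70 members, with a median of 0.12, against -0.43 and -0.40 in KO chow 1 and 2. The medians in KO HFD 1 to 3 were 0.67, 0.19 and 0.09. Without KO HFD 1 the median diet difference was 0.39.

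KO HFD was also above WT HFD for most members, a comparison that shares KO HFD with the one just given. The median was 0.44 over 81 members (all genes -0.03), and 73 of 81 were above 0. The groups did not overlap, with KO HFD higher, for 47 of 81, against 7.37% of all genes, and with KO HFD lower for 1, Cox6a2, against 12.4% of all genes. No member passed the threshold in either fit; with 10 libraries the members with the smallest p were Atp5e (0.81 ± 0.24, SE; limma adjusted p = 0.360), Ndufa3 (0.84 ± 0.26) and Ndufv3 (0.59 ± 0.19), and 23 of 80 had an unadjusted p under 0.05, 22 of them higher in KO HFD, beside 12.7% of all genes. Cox6a2 stood at 0 to 0.317 FPKM in KO HFD and at 0.636 to 11.1 FPKM in WT HFD. Leaving out KO HFD 1 lowered the members' median to 0.26.

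Markers of exocrine pancreas and of heart differed between KO HFD and the other libraries. The 8 markers of exocrine pancreas summed to 40.9 to 72.6 FPKM in KO HFD and to 0 to 4.93 FPKM elsewhere, with 7 of 8 above 0 in each KO HFD library and Amy2a5 at 0 in all. The 8 cardiac muscle markers summed to 1.87 to 2.98 FPKM in KO HFD and to 6.48 to 34.0 FPKM elsewhere. Of these 8, Myh6, Myl2 and Ryr2 were at 0 in each KO HFD library and above 0 in the others, Nppa was above 0 in WT chow 2 and WT HFD 2 only, and Myl7 made up most of the KO HFD sum, at 1.68, 2.65 and 2.30 FPKM against 1.05, 2.09 and 1.30 FPKM in KO chow. The brown fat markers summed to 96.0, 25.2 and 37.3 FPKM in KO HFD and to 52.4, 42.5 and 45.9 FPKM in KO chow. Among the KO libraries the sum was highest in KO HFD 1, where Slc27a1 (34.1 FPKM) and Adrb3 (36.2 FPKM) made up most of it. The list did not move together there: Elovl3 was at 19.8 FPKM, below the 35.3 to 45.8 FPKM of KO chow. Ucp1 was at 0.0336 FPKM in KO HFD 1, and Dio2 and Zic1 were at 0. The part of these cells in the members' values was not tested.

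The interaction showed no member past the threshold. With 12 libraries the median was 1.41 over 81 members, of which 78 were above 0, and with 10 libraries it was 0.67 over 80, of which 73 were above 0 (all genes -0.10 and -0.09). The members with the smallest p with 10 libraries were Ndufv3 (1.06 ± 0.33, SE), Atp5e (1.30 ± 0.41) and Ndufa2 (1.09 ± 0.36), each at a limma adjusted p of 0.457. It rests on WT chow 1 as the only wild-type chow library there.

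Genes that build or supply the complexes were taken from lists. Among the assembly factors tested with 10 libraries for KO HFD against KO chow, 1 of 14 for complex I (Ndufaf3), 1 of 7 for complexes II and III (Uqcc2) and 1 of 18 for complex IV (Pet100) were higher, beside 1.8% of all genes, none was lower, and neither direction was met among 3 for complex V. Uqcc2, needed for cytochrome b, went from 45.3 ± 14.3 (SD, n = 3) to 97.8 ± 19.0 FPKM (1.12 ± 0.22 SE; limma adjusted p = 0.0298). Pet100, a chaperone of complex IV, went from 18.9 ± 9.65 to 43.1 ± 8.89 FPKM (1.24 ± 0.30; limma adjusted p = 0.0399). The median differences of these lists were 0.23, 0.31, 0.08 and 0.01 in the order I, II and III, IV, V, below the 0.58 of the members. Subunits and carriers outside the symbol rule, such as Cycs and Ndufab1, had a median of 0.53 over 8 genes, with 8 of 8 above 0 and none past the threshold.

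The regulators of mitochondrial biogenesis had a median of -0.30. Of 16 tested, 0 were above 0 in KO HFD against KO chow, where 43.0% of all genes were. Coding length, which went with this difference over all genes, was not matched in these comparisons of the list with all genes. Past the threshold as lower were 4, Yy1, Gabpa, Ppara and Polg, beside 6.85% of all genes. Sites of YY1 and of ETS factors such as GABP were among those counted above. Nrf1 and Esrra, on the same list, were not past the threshold. No link between the sites and the levels of these regulators was tested. Gabpa overlaps the member Atp5j, which lies on the opposite strand. Yy1 went from 19.1 ± 1.97 (SD, n = 3) to 11.3 ± 0.645 FPKM (-0.71 ± 0.14 SE; limma adjusted p = 0.0298), and Gabpa from 9.08 ± 1.63 to 5.17 ± 0.343 FPKM (-0.70 ± 0.15; limma adjusted p = 0.0328). Ppara, the fatty acid receptor of liver, went from 31.5 ± 8.38 to 11.8 ± 7.08 FPKM (-1.45 ± 0.36; limma adjusted p = 0.0412), and Polg, the polymerase of mitochondrial DNA, from 6.15 ± 0.886 to 3.99 ± 0.356 FPKM (-0.51 ± 0.13; limma adjusted p = 0.0462).

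Of 17 genes of the citric acid cycle and pyruvate dehydrogenase, 1 was lower, Pdha1 (25.2 ± 1.51 FPKM in KO chow and 15.8 ± 2.38 FPKM in KO HFD), a share near the 6.85% of all genes called lower, and the median was 0.07. The 15 genes of the outer membrane, import machinery, chaperones and carriers had a median of 0.25, with none past the threshold. Of 12 mitochondrially encoded subunits tested, 2 were higher, beside 1.8% of all genes: mt-Nd3 (11.6 ± 1.87 against 20.7 ± 3.71 FPKM) and mt-Co2 (58.6 ± 10.6 against 95.4 ± 17.4 FPKM), and the median was 0.33, while their summed level overlapped between KO chow (42379 to 51226 FPKM) and KO HFD (43944 to 52276 FPKM). With all 12 libraries none of the genes on these lists passed in any comparison.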

How the data were processed

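RNA from 12 mouse samples labelled liver (4 groups of 3) was sequenced. FPKM values per gene were computed by the authors and deposited with gene length, position and type. The tools named, per the submitters' processing notes and with no roles, were TopHat, STAR, CASAVA, DESeq2 and HTSeq 0.6.1, with builds GRCm38 and mm10; counting options and library kit were not found in these sources. Multiplying FPKM by gene length turned 100% of values into whole reads (within 0.1 read), 15705196 to 20311766 on genes in each library. Precision of low genes is limited by those reads, and no replicate pair agreed within sampling noise. All value columns were mapped to samples.

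Values were taken as log2(FPKM + 1), a scale that understates changes of low genes. Genes with a mean of at least 0.5 FPKM were tested with limma 3.58.1 (R 4.3.3; group means, moderation with a trend), with Benjamini-Hochberg adjustment over all genes and a threshold of 0.05; the fit was tested on simulated data. P-values measure only the spread between these samples. For single libraries, a member counted as higher or lower beyond 1 log2 unit from all others, with no test. Alternatives covered the pseudocount, filter, scaling, libraries, a replicate block, limma-voom on recovered reads and leaving out each library; those within the 10 libraries were chosen after seeing the data. Coding lengths came from GENCODE M21, promoter windows from RefSeq (GRCm38.p6), figures from matplotlib 3.10.9.

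The members, lists and tests were chosen with earlier results of these data known. Named members were those with alternative forms, the 2 highest and 2 lowest per complex by level and by the difference of WT chow 3, those past the threshold (or the 3 smallest p), and list genes past the threshold, at most 4 per direction. Others named, in figures too (Atp5k, Ndufa8, Uqcr10, Uqcr11, Ndufs8, Uqcrfs1, Cox7b), were chosen after their values were seen, as were the role groups.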

Additional observations from a re-analysis of the deposited data

How the results depend on the processing

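With 12 libraries, 0 members passed in each of the 5 comparisons under another pseudocount, filter or scaling, limma-voom, and the replicate block. The same held with 11 libraries (without WT chow 3). A fit of 2 groups only, which cannot give the interaction, gave 0 in the other comparisons. With 9 libraries (without WT chow 2, WT chow 3 and KO HFD 1), 0 passed in both comparisons of KO HFD with another group. Same-numbered libraries did not deviate together (correlations -0.51 to 0.13 over pairs), so the numbers were not taken as pairs; with the replicate block the counts were 0 and, for KO HFD against KO chow, the median was 0.57. Leaving out 1 library gave 0 to 48 members for KO chow against WT chow, 0 to 32 for WT HFD against WT chow and 0 to 42 for the interaction, the highest each time without WT chow 1, and 0 for the other comparisons. Medians moved with 10 and with 9 libraries: -0.25 and -0.25 for KO chow against WT chow, -0.060 and -0.060 for WT HFD against WT chow, and 0.67 and 0.51 for the interaction. For KO HFD against KO chow, 10 libraries gave 6 members. Within those 10, the replicate block gave 0 (3.08% of all genes), median-of-ratios scaling 13 (8.28%), limma-voom 13 (11.1%) and TPM 8 (17.0%), and leaving out 1 library gave 0 to 36. The shares of all genes beside these counts are for calls in either direction. The members called with median-of-ratios scaling and with limma-voom were all higher in KO HFD. The WT HFD against WT chow median changed sign, to 0.035, without WT HFD 3. With TPM and 10 libraries, the KO HFD against KO chow median of all genes was -0.22, and the members' median lay 0.60 above it. For WT chow 3, scaling outside the mitochondrial genome gave 11 members higher (11.8% of all genes) and a median of 1.37, and the 9 libraries outside WT chow as reference gave 8 (7.49%). The causes of these changes were not tested.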
